A study of Homo sapiens with 8 samples.

Results

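The integrated stress response regulators described here are 10 of the 62703 genes in the table: ATF4, DDIT3, PPP1R15A, TRIB3, ATF3, CEBPB, CHAC1, SESN2, DDIT4 and ATF5. They were chosen by name for their known place in this pathway, with earlier results of these data known. All 10 were found in the table under a single identifier each. Every member passed the filter on low counts at 0.4 µM rotenone, and CHAC1 lay below it in all but 1 of the other comparisons.

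In the integrated stress response, 4 kinases that sense heme shortage, double-stranded RNA, misfolded protein in the endoplasmic reticulum (ER) or lack of amino acids phosphorylate the translation factor eIF2. Most translation then slows, while mRNAs with upstream open reading frames, ATF4 among them, are translated more, and the transcription factor ATF4 switches on genes for amino acid supply, redox balance and, through DDIT3 (CHOP), cell death. In liver cells this pathway answers mitochondrial damage, ER stress and amino acid shortage.

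The cells were HepaRG, an established human hepatic line whose differentiated cultures hold hepatocyte-like and biliary-like cells, and the study asked how single cells respond to chemicals with known modes of stress. They were treated for 24 hours with brefeldin A (0.001, 0.01 and 0.1 µM), tunicamycin (0.001, 0.01 and 0.1 µM), etoposide (0.25, 2.5 and 25 µM), tert-butylhydroquinone (tBHQ, 3, 30 and 300 µM), rotenone (0.2 and 0.4 µM), cycloheximide (0.2, 2 and 20 µM) or troglitazone (50 µM in the cell table), or with the solvent DMSO, present at 0.1% in every treated culture. Some cells are listed as in medium, a condition that the labels do not describe, and the labelled troglitazone doses lie between 0.001 and 0.1 µM, so these values are given by the name in the cell table. Parse Evercode barcoding gave unique molecular identifier (UMI) counts for 12976 cells in 8 sublibraries, and the 8406 cells that had 500 genes or more and no more than 20% of UMIs from mitochondrial genes were kept.

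The cells fall into 47 sample names, each a treatment and a run number, and the 38 with at least 30 kept cells were taken as cultures. DMSO had 4 cultures (runs 3 to 6), 0.4 µM rotenone 2 (runs 5 and 6), and 0.2 µM rotenone, each brefeldin A dose and each tBHQ dose 1. The study states a single treated culture per condition, and what a run stands for is not given in the sources used here, so the spread between cultures may be technical, and all p-values measure only that spread. Kept UMIs per culture ranged from 1741603 to 97081214, with a median of 45221 UMIs over all cells of the table. The median kept cell held 184833 UMIs at 0.2 µM rotenone, 184485 and 45112.5 at 0.4 µM (runs 5 and 6), and 17080 to 79381 in the DMSO cultures. In kept UMIs, the rotenone cultures of run 5 held 97081214 (0.2 µM) and 93754929 (0.4 µM), and that of run 6 held 7146777. All cells were dissociated in a buffer with the transcription inhibitor actinomycin D and the translation inhibitor anisomycin. Of the 12976 cells, 1735 share their 3-round barcode with a cell of another sublibrary. Hepatocyte markers (ALB and 7 others) were all present, with a summed level of 9900 to 23900 CPM in DMSO (CPM is a gene's share of the UMIs of its culture, scaled to a common total), while 4 leukocyte markers summed to 9.88 to 32.1 CPM.

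Promoter sequence was examined first for elements of this pathway and of other stress responses. All 10 members had windows in RefSeq (GRCh38.p14), 18 in all, each from 250 bases before to 50 bases after a transcription start. Both strands were searched for the C/EBP-ATF response element TGATGNAA, bound by ATF4 with a C/EBP partner, the cAMP response element TGACGTCA, the ER stress response element and the heat shock element, and no match overlapped another. CHAC1 and ATF3 held the C/EBP-ATF element, which 3.62% of 35116 windows hold, and PPP1R15A held the cAMP response element, which 1.85% hold. None of the 18 windows held the ER stress element (0.08% of windows) or the heat shock element (0.48%). The matches are shown in 30 bases of reference sequence on the plus strand, which is the strand of all 3 genes, with the element in capitals.
CHAC1, chr15:40953251-40953280, element starting 209 bases before the start and read on the opposite strand: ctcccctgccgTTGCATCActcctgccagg
ATF3, chr1:212565205-212565234, element starting 191 bases before the start: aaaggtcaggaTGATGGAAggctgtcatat
PPP1R15A, chr19:48872352-48872381, element starting 58 bases before the start: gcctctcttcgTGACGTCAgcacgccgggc
These starts are those of RefSeq. In the GENCODE 44 annotation, the CHAC1 and PPP1R15A stretches lie in the first exon of a further transcript of the same gene, within its untranslated region, and the ATF3 stretch lies upstream of the gene. A match is a description of the letters only.

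At 0.4 µM, rotenone, which blocks electron transport at complex I in mitochondria, raised 7 of the 10 regulators against DMSO and lowered none. The 7 were ATF4, SESN2, CHAC1, DDIT4, PPP1R15A, TRIB3 and ATF5, with log2 fold changes from 1.21 to 3.65 by edgeR's quasi-likelihood test with Benjamini-Hochberg adjustment over all genes. Among the 19831 genes tested, 19.1% were called higher and 42.2% lower. The median log2 fold change was 1.72 over the 10 members and -0.56 over all genes tested. Levels are shares of a culture's UMIs, and the split of calls moved with the scaling: 3794 genes were higher and 8373 lower under the total count, and 5570 and 6078 under TMM factors, where the median was -0.10. The 7 members were called higher under both.

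ATF4, the transcription factor at the centre of the pathway, was at 51.0, 39.2, 65.1 and 54.4 CPM in the DMSO cultures of runs 3 to 6 and at 303.5 and 416.1 CPM in the 2 cultures with 0.4 µM rotenone. The groups do not overlap. Its mean was 359.8 ± 79.6 CPM (SD, n = 2) against 52.4 ± 10.7 CPM (n = 4), a log2 fold change of 2.77 (SE 0.23, edgeR adjusted p = 1.74e-06). ATF5, a relative of ATF4 with a known role in the mitochondrial stress response, was at 22.5, 16.4, 21.0 and 13.9 CPM in DMSO and at 29.7 and 57.5 CPM with rotenone. Both rotenone cultures lie above all DMSO cultures, but far apart from each other. The log2 fold change was 1.21 (SE 0.29, edgeR adjusted p = 0.00306). Without the rotenone culture of run 6 it was 0.67 and no longer passed the test (edgeR adjusted p = 0.0921).

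SESN2, a stress-induced sensor that restrains mTORC1 when leucine is scarce, was at 42.3, 48.9, 54.3 and 30.1 CPM in DMSO and at 240.4 and 315.4 CPM with 0.4 µM rotenone. No DMSO culture came near the rotenone cultures, and the log2 fold change was 2.66 (SE 0.24, edgeR adjusted p = 2.8e-06). DDIT4 (REDD1), another inhibitor of mTORC1 signalling, was at 16.7, 9.07, 27.2 and 18.9 CPM in DMSO and at 60.9 and 155.7 CPM with rotenone. The rotenone cultures are both above DMSO and differ more from each other than any of the DMSO cultures do in CPM. DDIT4 rose by 2.54 on the log2 scale (SE 0.38, edgeR adjusted p = 0.00011), and by 1.72 without the rotenone culture of run 6 (edgeR adjusted p = 0.00298).

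CHAC1, an enzyme that degrades glutathione, had the largest log2 fold change of the 10. It was barely detected in DMSO, at 0.239, 0.293, 0.838 and 0.415 CPM, and reached 5.03 and 9.24 CPM with 0.4 µM rotenone. It was too low to be tested in most other comparisons, and it passed the filter on low counts here through its rotenone cultures. The log2 fold change was 3.65 (SE 0.47, edgeR adjusted p = 3.9e-05), and it rests on 34 UMIs in all DMSO cultures together. Without the DMSO culture of run 5 it was 4.53. TRIB3, a pseudokinase that binds AKT and ATF4 and is induced by ATF4 and CHOP, was at 6.21, 7.90, 7.48 and 4.15 CPM in DMSO and at 16.5 and 19.0 CPM with rotenone. Its 2 rotenone cultures lie close together and above every DMSO culture, with a log2 fold change of 1.45 (SE 0.29, edgeR adjusted p = 0.000841).

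PPP1R15A (GADD34), the subunit that directs a phosphatase to eIF2 and so ends the response, was at 48.5, 33.9, 69.8 and 59.1 CPM in DMSO and at 114.2 and 310.3 CPM with 0.4 µM rotenone. The groups do not overlap, although the rotenone cultures differ from each other more than the lower one differs from DMSO. Its log2 fold change was 1.99 (SE 0.34, edgeR adjusted p = 0.000331), and 1.10 without the rotenone culture of run 6 (edgeR adjusted p = 0.0109).

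DDIT3, ATF3 and CEBPB did not pass the test at 0.4 µM. DDIT3, which encodes the transcription factor CHOP, was at 77.9, 89.8, 117.6 and 82.0 CPM in DMSO and at 69.7 and 58.6 CPM with rotenone. Both rotenone values lie below all DMSO values, with a log2 fold change of -0.52 (SE 0.23, edgeR adjusted p = 0.0631) that was -0.06 under TMM factors. ATF3, a stress-induced repressor and activator of the same family, was at 170.8, 232.3, 242.3 and 241.1 CPM in DMSO and at 271.4 and 338.6 CPM with rotenone. Its log2 fold change was 0.46 (SE 0.22, edgeR adjusted p = 0.0835) under the total count and 0.92 under TMM factors, where it passed (edgeR adjusted p = 0.0025). CEBPB, a C/EBP factor of liver and fat that pairs with ATF4, was at 19.7, 15.5, 36.2 and 25.5 CPM in DMSO and at 21.1 and 48.0 CPM with rotenone, so that its groups overlap (log2 fold change 0.47, SE 0.36, edgeR adjusted p = 0.273). With DESeq2 size factors it was 1.00 and passed (edgeR adjusted p = 0.0242).

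**Figure D1:**
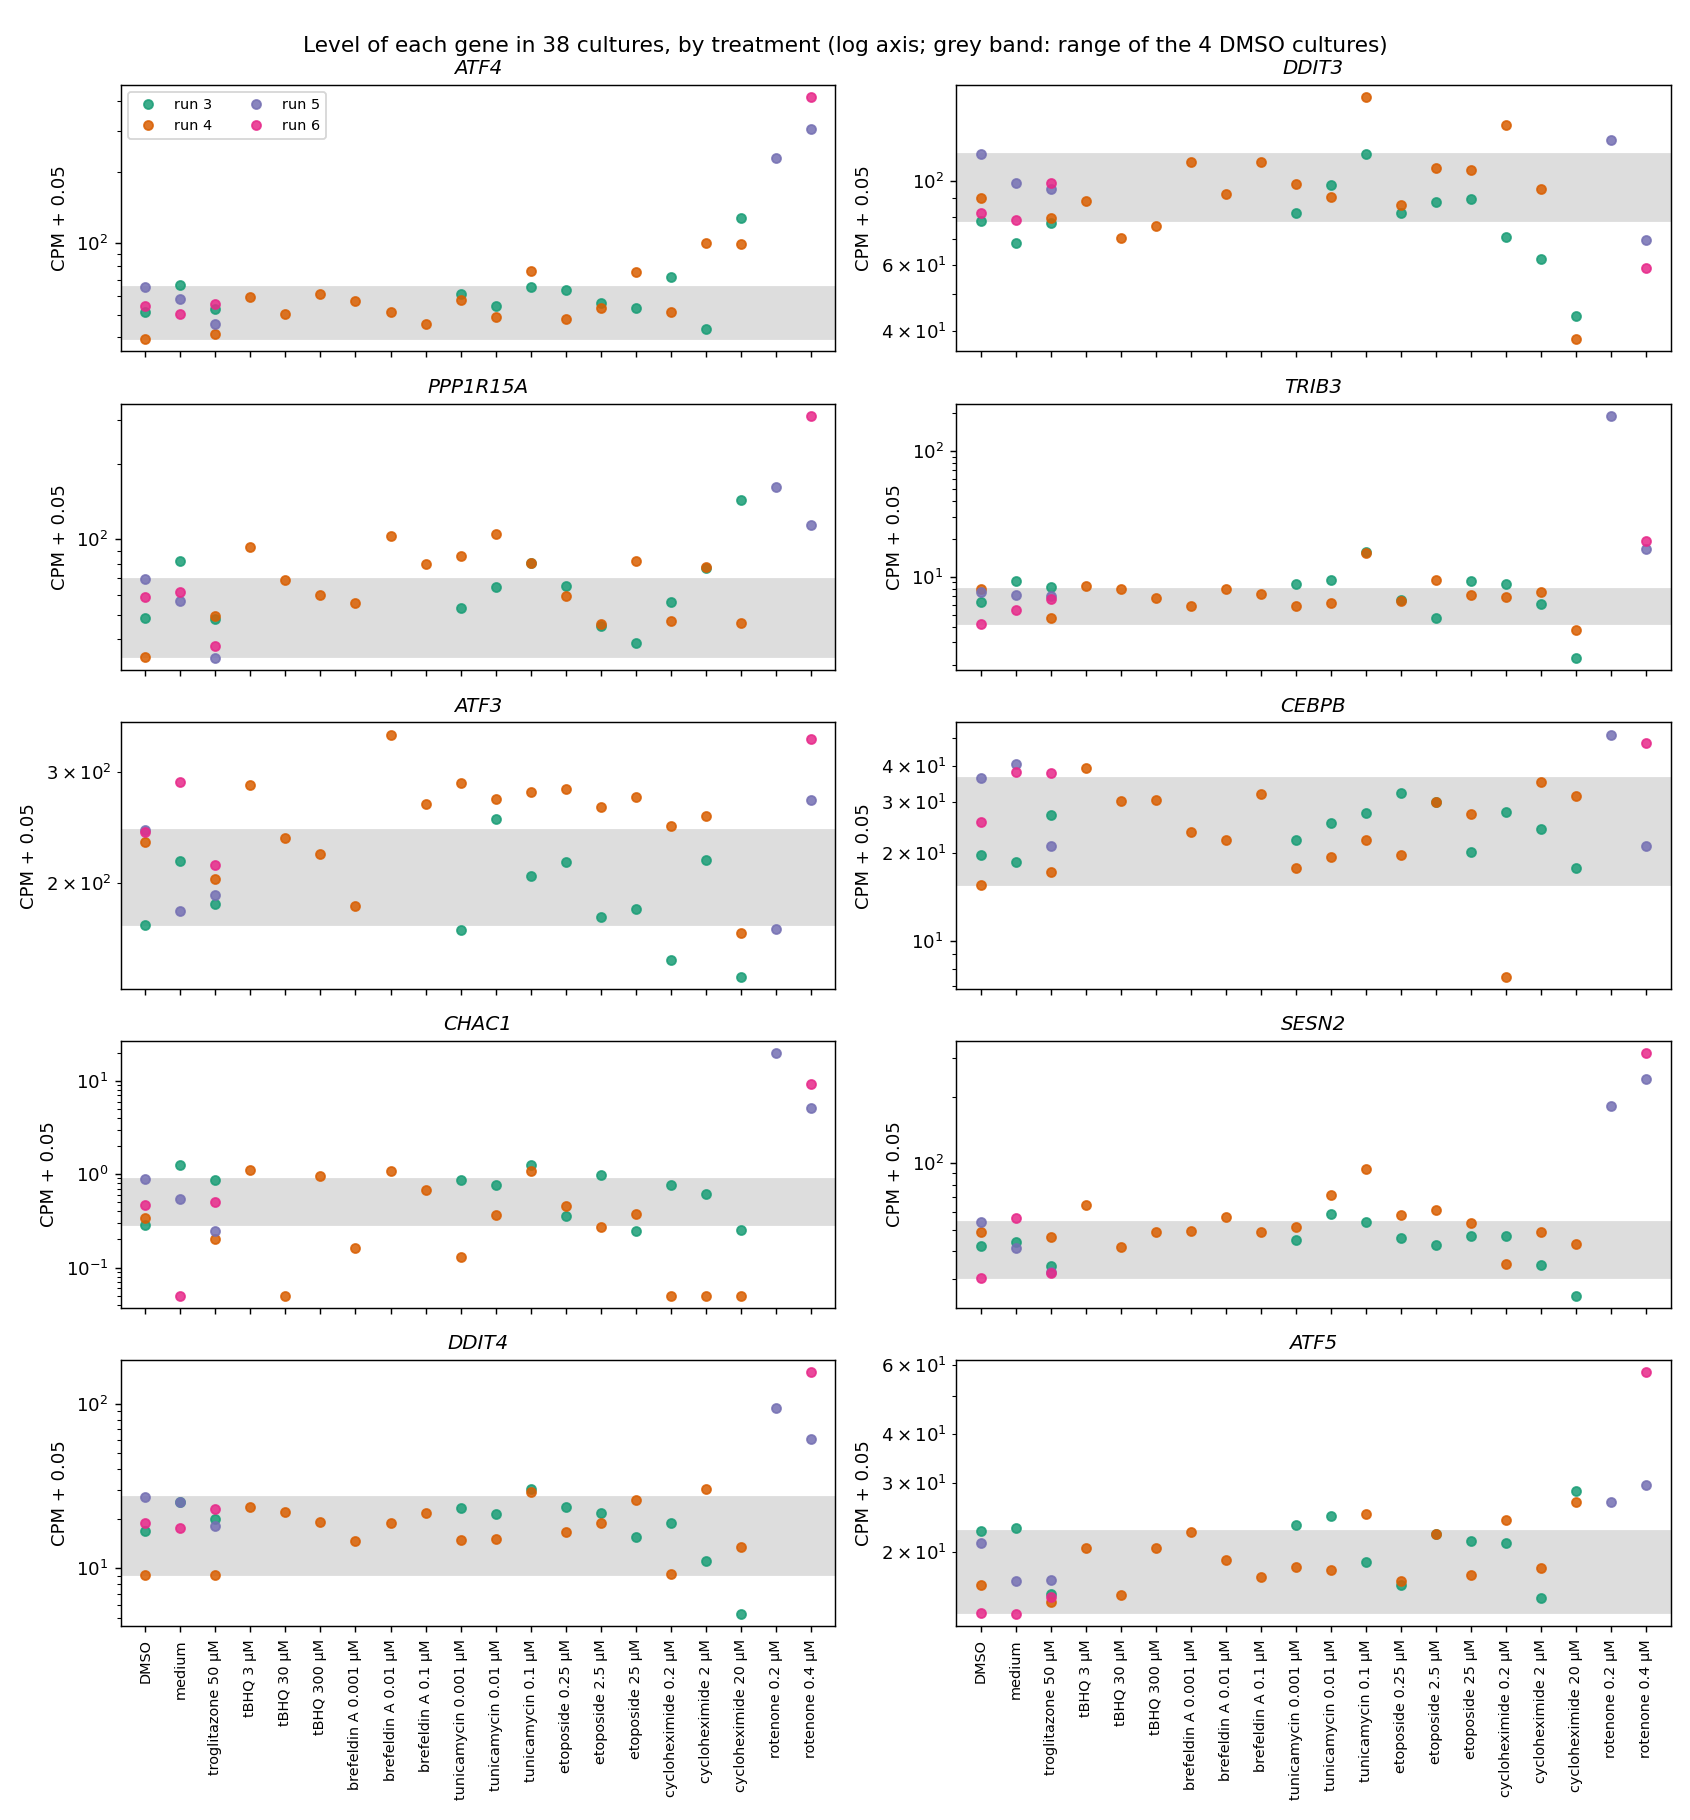
Level of each of the 10 regulators in the 38 cultures (CPM + 0.05, log axis), by treatment and dose, with point colour for the run and a grey band for the range of the 4 DMSO cultures. The 3 rotenone cultures lie above the other 35 cultures for ATF4, TRIB3, CHAC1, SESN2 and DDIT4, while DDIT3 and ATF3 have no rotenone culture above all others. The share of all genes with such an order is not given.

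At 0.2 µM, in a single culture of run 5, 6 of the 10 regulators were over 2-fold higher than in the pooled DMSO cultures and none was 2-fold lower. Of 11865 genes with at least 10 CPM and 50 UMIs in the higher condition, 16.3% were 2-fold higher and 19.6% were 2-fold lower. There is no replicate check for this dose, and the 95% intervals (exact, conditional binomial) cover counting error only. TRIB3 stood at 190.3 CPM, from 18478 UMIs against 375 in all DMSO cultures, a log2 ratio of 4.78 (interval 4.63 to 4.93) and 27.5-fold. CHAC1 stood at 19.7 CPM, from 1909 UMIs against 34, a log2 ratio of 4.97 (4.48 to 5.50). These are the highest levels of both genes in the 38 cultures. Both were below 10 CPM in pooled DMSO, so in this comparison they reached that level only through rotenone.

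ATF4 reached 229.1 CPM at 0.2 µM, a log2 ratio of 1.95 (interval 1.90 to 2.01). DDIT4 reached 93.7 CPM (log2 ratio 2.03, interval 1.95 to 2.12), SESN2 182.4 CPM (1.90, interval 1.84 to 1.96) and PPP1R15A 160.9 CPM (1.38, interval 1.33 to 1.44). The other 4 stayed within 2-fold of DMSO. CEBPB was at 51.3 CPM (log2 ratio 0.77), ATF5 at 26.7 CPM (0.39), DDIT3 at 127.6 CPM (0.30) and ATF3 at 168.4 CPM (-0.42), the last being just below the lowest DMSO culture.

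The doses can be compared in run 5, which holds a culture of each and a DMSO culture. From 0.2 to 0.4 µM, 3 regulators were over 2-fold lower and none was 2-fold higher, where 24.4% of 10819 genes were 2-fold lower and 10.7% were 2-fold higher. The 3 of 10 regulators are thus near the share of all genes that were lower. TRIB3 went from 190.3 to 16.5 CPM, 11.5-fold lower (log2 ratio -3.53, interval -3.60 to -3.45). CHAC1 went from 19.7 to 5.03 CPM (log2 ratio -1.97, interval -2.11 to -1.82) and CEBPB from 51.3 to 21.1 CPM (-1.28, interval -1.36 to -1.21). In this step CHAC1 reached 10 CPM only through the 0.2 µM culture. DDIT3 was also lower at 0.4 µM, with a log2 ratio of -0.87, as were DDIT4 (-0.62) and PPP1R15A (-0.49). ATF4 and SESN2 were higher at the higher dose, by log2 ratios of 0.41 and 0.40, and ATF3 by 0.69. The 10 regulators thus did not move in 1 direction with dose. Each dose is 1 culture here, so these ratios have no replicate check.

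**Figure D2:**
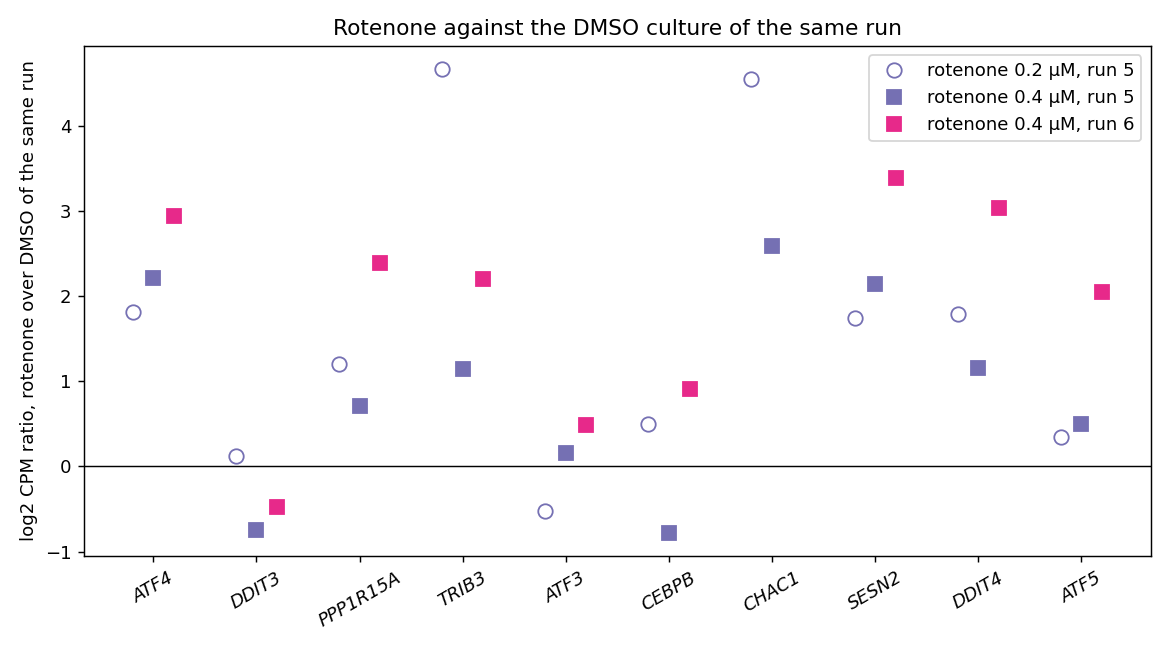
Log2 ratio of CPM in each rotenone culture to the DMSO culture of the same run, for the 10 regulators, with 0.2 µM (run 5) and 0.4 µM (runs 5 and 6) as separate points. TRIB3 stands at 4.67 for 0.2 µM and at 1.14 and 2.20 for 0.4 µM, whereas ATF4 stands at 1.82, 2.22 and 2.94; CHAC1 in run 6 is not drawn, since its DMSO culture held 2 UMIs.

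Within runs, the 0.4 µM log2 ratios to DMSO were higher in run 6 than in run 5 for each of the 9 members with both. For DDIT3 the ratio was negative in both, -0.75 in run 5 and -0.48 in run 6, so that its change was smaller in run 6. ATF4 had a log2 ratio of 2.22 in run 5 and 2.94 in run 6, SESN2 2.15 and 3.39, DDIT4 1.16 and 3.04, PPP1R15A 0.71 and 2.39, and ATF5 0.50 and 2.05. The sign was the same in both runs for 8 of these 9. CEBPB was the exception, with -0.78 in run 5 and 0.91 in run 6.

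Relative to their level, aliquots of the same culture spread more where the counts were low. In the 8 sublibraries of the 0.2 µM culture, TRIB3 ranged from 162.8 to 213.6 CPM, ATF4 from 201.4 to 241.9 CPM and CHAC1 from 15.0 to 25.1 CPM. In those of the 0.4 µM culture of run 5, TRIB3 ranged from 10.95 to 24.61 CPM and CHAC1 from 3.63 to 7.75 CPM, and in those of the DMSO culture of run 5 TRIB3 ranged from 4.74 to 11.4 CPM. These aliquots hold different cells of the same culture, so their spread covers the sampling of cells and technical spread, and not that between cultures.

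Several values of the whole table moved with rotenone. Genes under 10 kb long with at least 10 CPM had a median log2 fold change of 0.06 at 0.4 µM, those of 10 to 100 kb one of -0.26 and those over 100 kb one of -1.13. Among the regulators, SESN2 (22974 bp), TRIB3 (34725 bp) and ATF3 (55444 bp) span 10 to 100 kb in GENCODE 44, and the other 7 are shorter than 10 kb. Of the genes under 10 kb, 26.3% were called higher. Mesenchymal markers (8 genes, with COL1A2 at 0 in DMSO) summed to 184 to 363 CPM in DMSO and to 95.4 and 110 CPM at 0.4 µM. Hepatocyte markers summed to 9010 and 17000 CPM, of which ALB made up most, and 4 of the 8 were called lower and none higher by edgeR, with a median log2 fold change of -1.32 (HNF4A -1.66, ARG1 -3.01, CYP3A4 -2.79 and CPS1 -2.20). Of 5 markers of dividing cells, CCNB1 (2.03) and CDK1 (1.72) were called higher and none lower, with a median of 1.20. The part of gene length and of cell type in the regulators' values was not tested.

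Cycloheximide, which blocks protein synthesis at the ribosome, raised ATF4 and lowered DDIT3 at 20 µM among 9 regulators tested. Of 18706 genes, 6.52% were called higher and 13.2% lower, 1220 and 2474 genes (1657 and 2177 with DESeq2 size factors). ATF4 was at 127.5 and 99.0 CPM in its cultures (runs 3 and 4), above all 4 DMSO cultures, with a log2 fold change of 1.11 (SE 0.22, edgeR adjusted p = 0.00526). Without the culture of run 3 it was 0.91 and did not pass (edgeR adjusted p = 0.0624). DDIT3 was at 43.8 and 38.0 CPM, below all DMSO cultures, and fell by 1.16 on the log2 scale (SE 0.24, edgeR adjusted p = 0.00545).

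The other regulators did not pass at 20 µM cycloheximide. PPP1R15A was at 144.0 and 46.6 CPM, the first above and the second within the DMSO range. Its log2 fold change was 0.87, and without the culture of run 4 it was 1.43 and passed (edgeR adjusted p = 0.0107). TRIB3 was at 2.20 and 3.75 CPM, below all DMSO cultures, with a log2 fold change of -1.26 (edgeR adjusted p = 0.0673). DDIT4 was at 5.21 and 13.4 CPM, with a log2 fold change of -1.14 (edgeR adjusted p = 0.12) that was -1.82 and passed without the culture of run 4 (edgeR adjusted p = 0.0456). CHAC1 was too low to be tested, and TRIB3, ATF3, SESN2, DDIT3 and DDIT4 had their lowest mean over the 20 treatment values here. Only DDIT3 among these passed the test, and the share of all genes with their lowest mean here is not given. Hepatocyte markers summed to 2630 and 6140 CPM in these cultures, below the DMSO range, and their part in the result was not tested. At 2 µM, ATF4 was at 43.3 and 100.7 CPM, and no regulator passed at 0.2 or 2 µM.

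Tunicamycin, which blocks N-glycosylation and so loads the ER with misfolded protein, gave no regulator past the test at 0.1 µM, where 1 gene was called in all by edgeR and 21 by DESeq2. All 9 regulators tested had a positive log2 fold change, with a median of 0.59 against -0.02 over all genes tested. An unadjusted edgeR p under 0.05 was found for 4 of them (DDIT3, PPP1R15A, TRIB3 and SESN2) and for 676 of all 18577 genes. DESeq2 called none of the 9. TRIB3 was at 15.7 and 15.3 CPM, beside 16.5 and 19.0 CPM at 0.4 µM rotenone, with a log2 fold change of 1.26 (SE 0.28, edgeR adjusted p = 0.573), and it passed when low counts were not filtered out (edgeR adjusted p = 0.0145). DDIT3 reached 166.2 CPM in run 4, its highest value in any culture, and 117.6 CPM in run 3. Both cultures lay above all 4 DMSO cultures for 6 regulators (ATF4, PPP1R15A, TRIB3, SESN2, DDIT4 and CHAC1, the last untested), which 4.92% of 18577 tested genes also did. For SESN2 the margin was small, at 54.33 CPM against 54.27 CPM. A fit with run as a block called 4 regulators higher (DDIT3, PPP1R15A, TRIB3 and DDIT4) and 0.366% of all genes tested. Runs were not taken as pairing the cultures, so that fit is a hint only.

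At the lower tunicamycin doses the regulators tested had a smaller median log2 fold change, 0.08 at 0.001 µM and 0.20 at 0.01 µM. This did not hold for each regulator. TRIB3 had a mean of 7.29 ± 2.04 CPM at 0.001 µM and 7.76 ± 2.27 CPM at 0.01 µM (SD, n = 2 each), against 6.44 ± 1.69 CPM in DMSO (n = 4). SESN2 was at 58.9 and 71.7 CPM at 0.01 µM, both above the DMSO range, with a log2 fold change of 0.56 that did not pass the test. PPP1R15A had a log2 fold change of 0.67 at that dose and did not pass either. That value and the 0.24 of ATF3 were above those at 0.1 µM (0.59 and 0.13).

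Over the 9 remaining comparisons with at least 2 cultures (tunicamycin at the lower doses, cycloheximide at the lower doses, etoposide, troglitazone and medium), 82 tests of regulators gave no call by edgeR or DESeq2. Among them, 2 had an unadjusted p under 0.05, PPP1R15A and SESN2 at 0.01 µM tunicamycin. The log2 fold changes ranged from -0.36 (CEBPB, 0.2 µM cycloheximide) to 0.67, and the lowest edgeR adjusted p was 0.688. With run as a block, edgeR called PPP1R15A higher at 0.01 and 0.001 µM tunicamycin, where 0.0715 and 0.896% of all genes tested were called higher. Etoposide, which traps topoisomerase II on DNA and so activates p53, left SESN2, a p53 target as well, at 46.9 and 53.4 CPM at 25 µM, within the DMSO range of 30.1 to 54.3 CPM. A single culture each was held for brefeldin A, which blocks transport from the ER to the Golgi, and for tBHQ, an activator of the antioxidant factor NRF2. For 9 regulators (CHAC1 left out for its low counts), their 54 log2 ratios to pooled DMSO ranged from -0.64 (DDIT4, 0.001 µM brefeldin A) to 0.75 (PPP1R15A, 0.01 µM brefeldin A), and none was past 2-fold. Against the DMSO culture of run 4 alone, the run of all 6, 11 were past 2-fold higher (PPP1R15A, CEBPB and DDIT4), where 3.89% of all such ratios with at least 10 CPM and 50 UMIs were. That culture had the lowest DMSO level of these 3 genes. The pooled DMSO UMIs came mostly from run 5 (33404488 kept UMIs, against 3417334 in run 4), which had the highest DMSO level of the same 3 genes. ATF3 had its highest value of all cultures at 0.01 µM brefeldin A, 344.6 CPM, between 183.8 CPM at 0.001 µM and 266.6 CPM at 0.1 µM.

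The order of the 20 treatment values by mean level differed among the regulators. Rotenone at 0.4 µM was highest for ATF4, PPP1R15A, SESN2, DDIT4 and ATF5, and 0.2 µM was highest for TRIB3, CHAC1 and CEBPB. The share of all genes with their highest mean under rotenone is not given here, so this order is a description of the regulators only. For ATF4, 0.4 µM rotenone was followed by 0.2 µM and by 20 µM cycloheximide at 113.3 ± 20.1 CPM, then by 2 µM cycloheximide at 72.0 ± 40.6 CPM (SD, n = 2 each), which do not differ beyond their spread. PPP1R15A at 0.4 µM (212.2 ± 138.7 CPM, n = 2) does not differ beyond its spread from 160.9 CPM at 0.2 µM, and the same holds for DDIT4 (108.3 ± 67.1 against 93.7 CPM). TRIB3 stood at 190.3 CPM at 0.2 µM rotenone, at 17.8 ± 1.77 CPM at 0.4 µM (n = 2) and 15.5 ± 0.304 CPM at 0.1 µM tunicamycin (n = 2), and 8.44 CPM (3 µM tBHQ) or less in the other 17 values. DDIT3 was highest with 0.1 µM tunicamycin (141.9 ± 34.4 CPM, n = 2), within its spread of 127.6 CPM at 0.2 µM rotenone. Its 2 lowest values were 0.4 µM rotenone (64.2 ± 7.84 CPM, n = 2) and 20 µM cycloheximide (40.9 ± 4.08 CPM, n = 2).

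Single cells were compared after each was thinned to 10000 UMIs, which left out 4 to 10 kept cells per DMSO culture and 1 or 2 per rotenone culture. A kept DMSO cell then held UMIs of a mean of 2.60, 2.62, 3.31 and 2.90 of the 10 regulators in runs 3 to 6. The rotenone means were 5.94 at 0.2 µM and 4.61 and 5.63 at 0.4 µM (runs 5 and 6), and the other 31 cultures lay between 2.58 and 3.74. Cells with UMIs of 5 or more regulators made up 10.3 to 21.8% of DMSO cells, 82.1% at 0.2 µM, 53.3% and 80.7% at 0.4 µM, and 4.84 to 26.0% in the other 31 cultures. The rotenone cultures thus stood apart from all others in how many regulators a cell showed. Cells of a culture are not replicates, so no test was made.

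Counts per gene at that depth showed where the rotenone doses differ. TRIB3 had a UMI in 74.7% of cells at 0.2 µM (exact 95% interval 70.4 to 78.7), in 13.6% and 13.8% at 0.4 µM, and in 4.49 to 8.47% of DMSO cells. Without thinning, these means were 96.4%, 47.2% and 22.7%. At 0.2 µM the tenth of cells with most TRIB3 UMIs held 28.3% of them, so the UMIs were spread over most cells. ATF4 had a UMI in 86.8% of cells at 0.2 µM, 91.0% and 95.4% at 0.4 µM and 35.9 to 45.3% in DMSO. SESN2 was found in 80.5%, 82.2% and 87.2% of the same cells, against 27.4 to 33.2% in DMSO. DDIT3 had a UMI in 66.9% of cells at 0.2 µM and in 48.2% and 40.4% at 0.4 µM, while the DMSO cultures ranged from 42.0 to 58.6%. CHAC1 was found in 18.3% of cells at 0.2 µM and in at most 1.63% in DMSO. Free RNA can give UMIs in cells that do not express a gene. No cell type lacking these genes was set apart here, and the DMSO shares stand beside each value instead.

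**Figure D3:**
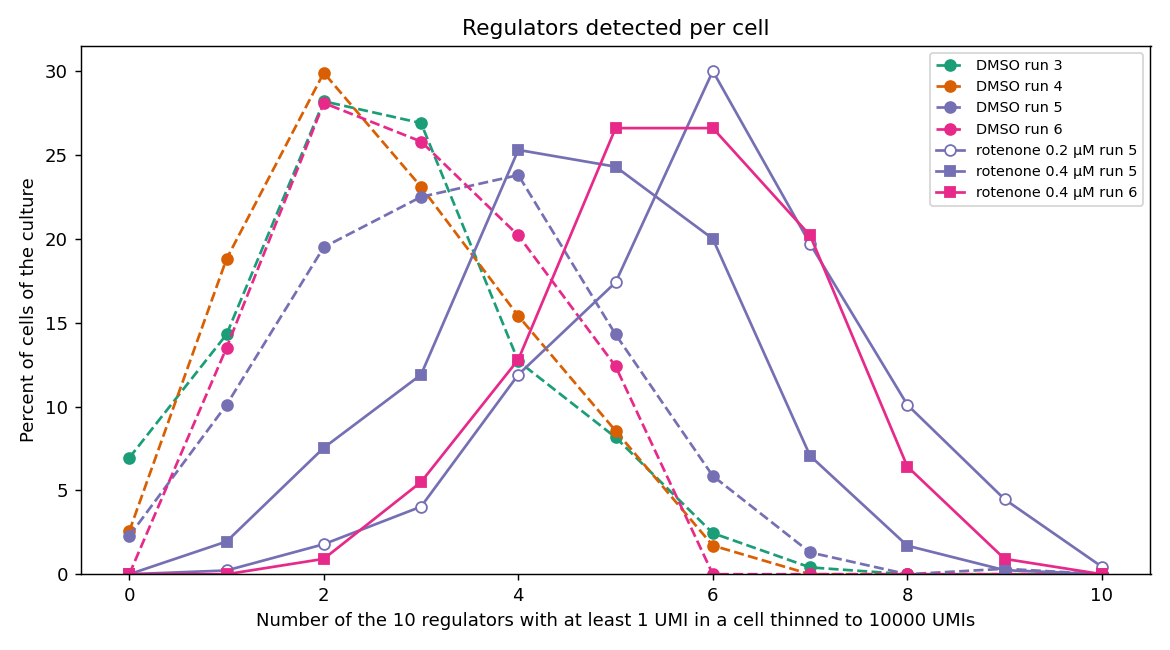
Percent of kept cells (thinned to 10000 UMIs) by the number of the 10 regulators with at least 1 UMI, as a line per culture for 4 DMSO and 3 rotenone cultures. The median is 2 or 3 regulators per cell in the DMSO cultures and 5 or 6 in the rotenone cultures. In run 5, the DMSO and the 0.4 µM curves both peak at 4 regulators (23.8% and 25.3% of cells).

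Within a culture, the regulators were at most weakly correlated over cells. Over the 447 cells with 0.2 µM rotenone, Pearson's r of the thinned counts ranged from -0.084 to 0.231 over 45 pairs, with the highest for DDIT3 and TRIB3. Over the 411 cells of run 5 with 0.4 µM, the highest of 36 pairs was 0.366, for ATF3 and SESN2. In counts this sparse such values are a description only. Cells over the mitochondrial limit, which were left out, were also compared with kept cells of their culture, in CPM of nuclear UMIs. Over 25 cultures the median log2 difference was -0.31 for TRIB3 and -0.29 for DDIT4, and between -0.06 and 0.12 for the other 7 with enough UMIs. CHAC1 could be compared in 8 cultures only, with a median of -0.68. In the 0.2 µM culture TRIB3 stood at 198.2 CPM in 304 left-out cells and 224.9 in 449 kept cells. At 0.4 µM it stood at 7.29 CPM in 80 left-out cells and 19.2 in 413 kept cells of run 5. In run 6 it stood at 22.0 CPM in left-out and 22.8 in kept cells. CHAC1 and SESN2 were also lower in the left-out cells of run 5 at 0.4 µM, with log2 differences of -1.34 and -0.69, and in those of run 6 (-0.76 and -0.30).

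Other genes of the pathway were described from lists, by counts beside 19.1% of all tested genes called higher and 42.2% called lower at 0.4 µM rotenone. A list of 20 genes held the eIF2 kinases, eIF2, its exchange factor and its phosphatases, together with OMA1, DELE1, EIF2A and EIF2D. Of these 20, 10 were called higher and 4 lower, and their log2 fold changes had a median of 0.46. EIF2A and EIF2D are among the higher, and OMA1 and DELE1 among the lower. PPP1CC, a catalytic subunit that PPP1R15A recruits, rose from 37.7 ± 3.29 to 224.0 ± 9.11 CPM, and EIF2S2, the beta subunit of eIF2, from 55.8 ± 8.16 to 178.6 ± 19.1 CPM (SD, n = 4 and 2). OMA1, the protease that passes mitochondrial stress to this pathway, fell from 62.4 ± 11.8 to 9.79 ± 3.16 CPM, and EIF2AK2 (PKR), the kinase for double-stranded RNA, from 68.7 ± 7.02 to 31.0 ± 2.74 CPM.

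Amino acid genes downstream of ATF4 gave 8 higher and 2 lower of 19 tested, and their median was 0.49 on the log2 scale. Their largest rises at 0.4 µM were in SLC7A11, the cystine transporter (log2 fold change 3.13), ASNS, asparagine synthetase (3.01), PSAT1 of serine synthesis (2.67) and SLC3A2, the partner chain of SLC7A11 (2.09). At 0.2 µM, 17 such genes had at least 10 CPM there or in DMSO, and 12 of them were over 2-fold higher than DMSO. None of the 17 was 2-fold lower, and the median log2 ratio was 2.34. Of all genes at that level with at least 50 UMIs, 16.3% were 2-fold higher and 19.6% lower. PHGDH, GPT2, SLC6A9 and SLC1A4 reached 10 CPM only with rotenone. Of the genes below it, MTHFD2 (-1.47) and PYCR1 (-1.10) were lower and SLC7A5 (0.98) was higher. ASNS stood at 274.6 CPM at 0.2 µM, at 88.2 ± 25.7 CPM (n = 2) at 0.4 µM and at 10.9 ± 1.09 CPM in DMSO (n = 4), so that like TRIB3 it was highest at the lower dose. Of the 13 cytosolic aminoacyl-tRNA synthetases, which load tRNAs with amino acids, 9 were called higher and none lower, with a median of 1.08. At 0.2 µM, 10 of 13 were 2-fold higher (median 2.36), beside the same 16.3% of all genes. GARS1 rose most at 0.4 µM, by 3.42, followed by MARS1 (2.12), TARS1 (2.07) and EPRS1 (1.64).

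Further targets of ATF4 or CHOP gave 11 higher and 3 lower of 19, with a median of 1.18. BCL2L11 (BIM), which promotes apoptosis, rose from 40.7 ± 7.15 to 545.4 ± 190.2 CPM at 0.4 µM and stood at 82.3 CPM at 0.2 µM. The other 3 with the largest changes were BBC3 (PUMA, also a promoter of apoptosis, log2 fold change 2.54), GADD45A, a growth arrest gene (2.17), and KLHL24 (2.02). ER genes under ATF6 and XBP1, the other arms of the ER stress response, gave 5 higher and 2 lower of 19 at 0.4 µM, with a median of 0.06. SEC61B (1.70), DNAJC3 (1.67) and DNAJB9 (1.33) rose, and DNAJB11 fell by 1.47. At 0.2 µM, none of 18 was 2-fold higher and 3 were 2-fold lower (median -0.10). Of all genes with at least 10 CPM and 50 UMIs there, 16.3% were 2-fold higher and 19.6% lower. At 20 µM cycloheximide 14 of these 19 genes were called lower and none higher, beside 13.2% and 6.52% of all genes tested. At 0.1 µM tunicamycin their median was 0.60, next to 0.59 for the regulators.

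**Figure D4:**
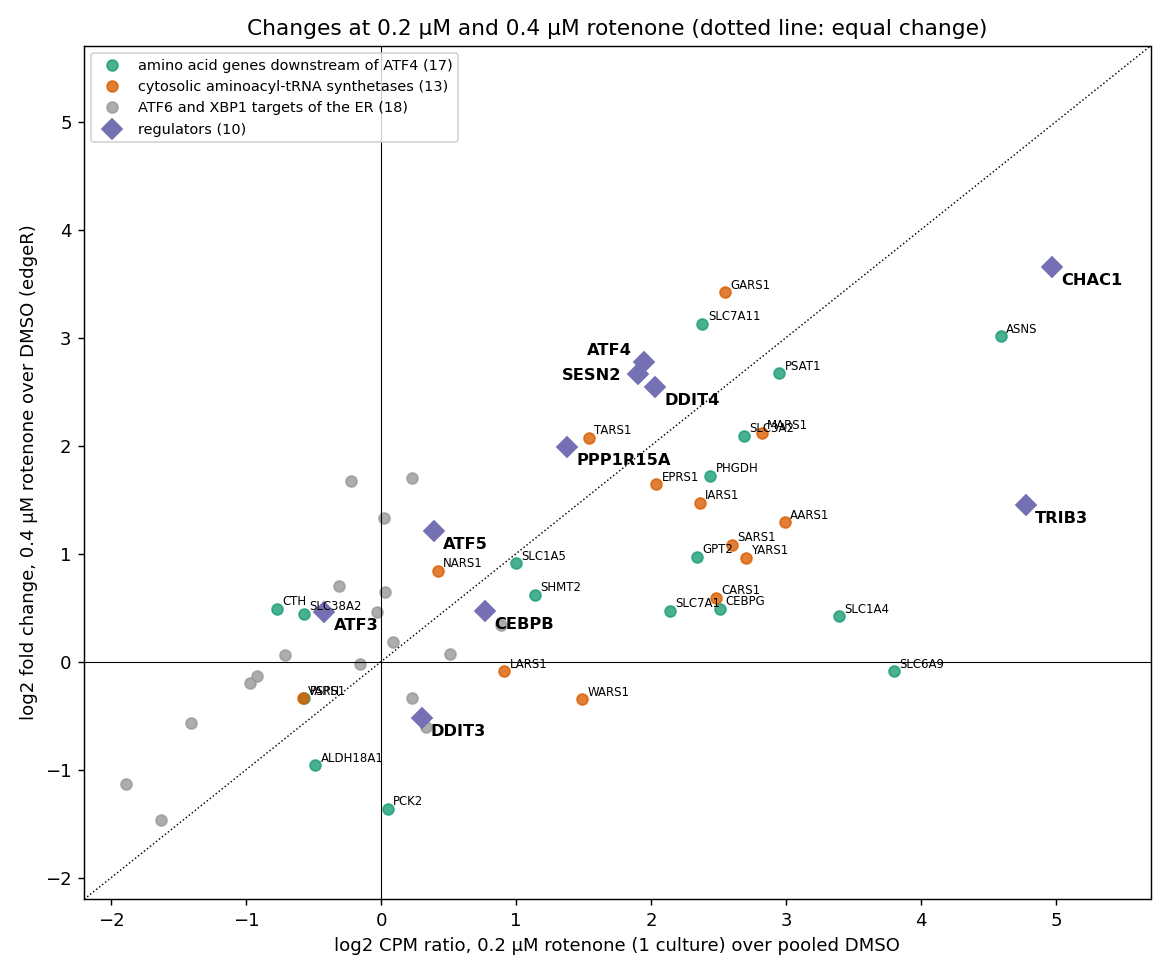
Each point is a gene, with the log2 ratio to pooled DMSO at 0.2 µM rotenone (1 culture) on the x axis and the edgeR log2 fold change at 0.4 µM (2 cultures) on the y axis, coloured as 10 regulators, amino acid genes, tRNA synthetases or ER genes. TRIB3 lies far right and low (4.78 and 1.45), ATF4 above the diagonal (1.95 and 2.77), and the ER genes on both sides of 0 on the x axis. Both axes share the 4 DMSO cultures.

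Among 32 tested relatives of the regulators (paralogs and other bZIP factors), 7 were called higher and 10 lower, with a median of -0.02. FOSB (log2 fold change -4.19), FOS (-3.41) and FOSL1 (-2.73), immediate early genes of the AP-1 family, fell, and TRIB1, a paralog of TRIB3, rose by 1.96 at 0.4 µM. The list of mTORC1 genes around DDIT4 and SESN2 gave 7 higher and 11 lower of 27, with a median of -0.12. RRAGC (3.73), RRAGD (2.36) and RHEB (2.20), GTPases that activate mTORC1, rose, and ITFG2 fell by 2.80. Targets of p53, which can also induce SESN2 and ATF3, gave 7 higher and 7 lower of 20 (median -0.02), with BBC3 (2.54) and SESN1 (1.41) higher and PLK3 (-2.02) and DDB2 (-1.80) lower. Hypoxia genes, which like DDIT4 respond to HIF1, gave 8 higher and 2 lower of 16 (median 0.72). KDM3A (3.16) and NDRG1 (2.32) rose, and ANGPTL4 (-2.41) and EGLN3 (-1.98) fell. All of these calls are edgeR calls at 0.4 µM rotenone.

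The genes most like each regulator were found by Pearson's r of log2(CPM + 1) over the 20 treatment values, which differ in depth and in their number of cultures. For TRIB3 these were SLC1A4, a neutral amino acid transporter (r = 0.955), SGTB (0.952) and AARS1, alanyl-tRNA synthetase (0.950). ATF4 was most like OGA (0.976), PUM2 (0.974) and WAC (0.972), SESN2 most like EAF1 (0.961), PRNP and RMC1, and CHAC1 most like AP5Z1 (0.960), MAP3K3 and PXK. DDIT4 was most like HSPA1A (0.942), whose reads cannot be told from those of its near-identical copy HSPA1B, DERL1 and CLIP2, and PPP1R15A most like KDM5C (0.923), VEGFA and PPRC1. For ATF3 these genes were KLF10 (0.911) and IQCN, for ATF5 TIMM23 (0.872), DHX36 and GAR1, for CEBPB NFE2L1 (0.817), NT5C3B and MLX, and for DDIT3 an unnamed gene (ENSG00000229261, 0.870), HKDC1 and RNF144A. Over the 18 values other than rotenone, r fell to 0.697, 0.647 and 0.795 for the genes like TRIB3 and to between 0.504 and 0.688 for those like CHAC1, while KLF10 stayed at 0.922 with ATF3.

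Among the regulators themselves, TRIB3 and CHAC1 were most alike (r = 0.918, and 0.549 without rotenone), followed by SESN2 and DDIT4 (0.902, and 0.698 without rotenone). DDIT4 and TRIB3 had an r of 0.879 with and 0.890 without rotenone. ATF4 and DDIT4 had an r of 0.614 over 20 values and of -0.613 without rotenone, so their likeness rests on the 2 rotenone values.

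Several regulators overlap other genes in GENCODE 44, and the sources used here do not say whether counting used the strand. DDIT3 overlaps MARS1 on the opposite strand, and MARS1 went from 30.1 CPM in DMSO to 209 CPM at 0.2 µM and 131 CPM at 0.4 µM rotenone, while DDIT3 was at 127.6 CPM and 64.2 CPM. It also overlaps MBD6 on the opposite strand, at 81.8, 84.4 and 39.0 CPM in these 3 conditions (log2 fold change -1.09 at 0.4 µM, edgeR adjusted p = 0.0462). ATF5 overlaps IL4I1 and NUP62, which had log2 fold changes of -0.79 and 0.20 at 0.4 µM. CEBPB-AS1, antisense to CEBPB, was at 0.634 CPM in DMSO. The ATF4 pseudogenes held almost no UMIs, with ATF4P4 at 0.208 CPM at most and 3 others at 0 in every culture. Reads shared with such neighbours cannot be told apart in these counts.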

How the data were processed

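UMI counts per gene and cell were deposited by the authors as a matrix with a cell table and a gene table. Per the labels, fixed HepaRG cells were barcoded with the Parse whole transcriptome kit and reads were mapped to GRCh38. The sources used here do not state the counting tool's version or strand setting. Median depth was 3.83 reads per UMI. The cell table gave the treatment and run of each cell through its sample name, and the barcode gave its sublibrary (8 in all). Kept cells were summed per culture, and 9 sample names with fewer than 30 kept cells were left out. Values in CPM, a share of the culture's total, were computed from these sums. No doublet caller was run.

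For treatments with at least 2 cultures, the test against DMSO was the quasi-likelihood test of edgeR after filterByExpr, with library sizes as the scaling and Benjamini-Hochberg adjustment over all genes tested (threshold 0.05). With 1 culture there was no test. The script was tested on simulated data. The members and lists were chosen with earlier results of these data known. Beside the members, the text names up to 4 genes of each list, those with the largest absolute log2 fold change past the test at 0.4 µM rotenone with at least 10 CPM in the higher group, and the 3 genes most like each member with at least 10 CPM in a treatment value, of which 1 is not reported here. The overlapping genes and pseudogenes of members, TRIB3 across doses beside ASNS, and pairs of members were named after their values were seen. Alternatives covered scaling, mitochondrial genes, DESeq2, filters on genes and cells, the mean over cells, 1 fit for all values, run as a block, each culture left out and the depth of thinning; likeness without rotenone was chosen after seeing the data. Runs were not taken as pairing the cultures, since not every correlation of deviations passed 0.1: over the 3 pairs of treatments that share at least 3 runs, 8 of 10 same-run pairs of cultures did, from -0.232 to 0.664, and so did 39 of 57 pairs of treatments that share 2 runs. The labels also list 0.8 µM rotenone, which was not analysed here. Tools were R 4.3.3 with edgeR 4.0.16, limma 3.58.1 and DESeq2 1.42.0, and Python 3.11.15 with numpy 2.4.6, pandas 2.3.3 and scipy 1.17.1.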

Additional observations from a re-analysis of the deposited data

Results flagged for a closer look

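Of 20 groups of 4 cultures checked (10 regulators in DMSO and in troglitazone), 2 had a culture far from the others, where chance gives about 1 in 20. ATF3 was at 170.8 CPM in the DMSO culture of run 3, and the other 3 DMSO cultures lay between 232.3 and 242.3 CPM. SESN2 was at 46.04 CPM in the troglitazone culture of run 4, and the other 3 lay between 31.79 and 34.08 CPM.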

How the results depend on the processing

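At 0.4 µM rotenone the count of regulators called higher was 7 to 9 under all alternatives except leaving out a culture, where it was 6 to 7, and none was called lower; CEBPB, not called, changed sign without rotenone replicate 2 (-0.22). At 20 µM cycloheximide the counts were 2 higher without a filter on low counts and 2 lower without that filter, with all cells or with all values in 1 fit. Leaving out a culture gave 0 to 2 higher and 1 to 2 lower, and PPP1R15A there ranged from -0.19 (without replicate 1) to 1.43. CEBPB at 20 µM cycloheximide, near 0, changed sign under TMM factors (0.02), DESeq2 size factors (0.04), the DESeq2 test (0.06), the block (0.38), without DMSO replicate 4 (0.22) and without cycloheximide replicate 1 (0.36), with -0.47 as the lowest value when a culture was left out. At 0.1 µM tunicamycin, ATF3 changed sign with the mean over cells (-0.10) and without tunicamycin replicate 2 (-0.11, up to 0.33 without replicate 1), and CEBPB with all cells (-0.13) and without DMSO replicate 2 (-0.08), DMSO replicate 3 (-0.13) or tunicamycin replicate 1 (-0.15, up to 0.29 without DMSO replicate 4). The cause was not tested. Without a filter on low counts, 1 regulator (TRIB3 at 0.1 µM tunicamycin, adjusted p = 0.0145 by edgeR) passed in the 10 comparisons other than 0.4 µM rotenone and 20 µM cycloheximide.

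With run as a replicate block, the calls at 0.4 µM rotenone were the same 7 and those at 20 µM cycloheximide the same 2, and 6 calls appeared elsewhere: DDIT3 (0.74), PPP1R15A (0.96), TRIB3 (1.17) and DDIT4 (1.18) at 0.1 µM tunicamycin, and PPP1R15A at 0.01 and 0.001 µM. Of all genes tested at 0.1, 0.01 and 0.001 µM tunicamycin, the block called 0.366, 0.0715 and 0.896% higher. The cultures share only a run number, so the block is a hint from the data and not the design. For brefeldin A and tBHQ, the DMSO culture of the same run as the comparator put 11 ratios past 2-fold higher, beside 3.89% of all ratios. With all cells, 24 of 200 mean levels moved beyond their spread, by -0.34 to 0.30 on the log2 scale, and with the small sample names 33 did. TRIB3 shares of cells at 5000 UMIs, 20000 UMIs and unthinned were 3.55, 10.1 and 22.7% in DMSO, 57.2, 88.7 and 96.4% at 0.2 µM rotenone and 9.0, 24.0 and 47.2% at 0.4 µM. Depth limits CHAC1, with 34 UMIs in DMSO. Replicates 2 to 5 of DMSO are runs 3 to 6, and replicates 1 and 2 of the other values the lower and the higher run.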
